A study of Homo sapiens with 4 samples.

Results

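The replication-independent histone variants were followed as 10 genes in RNA sequencing of pancreatic cancer cells after radiation. They were taken by gene name from a table of 58174 genes: H2AFX, H2AFZ, H2AFV, H2AFY and H2AFJ of the H2A family, H3F3A and H3F3B for H3.3, the linker histones H1F0 and H1FX, and the centromeric H3 variant CENPA. SW1990 and PANC-1 are established human pancreatic cancer lines. Each line was sequenced once unirradiated (Ctrl) and once after 10 Gy of X-rays (Rad), so each of the 4 groups is 1 library made from total RNA, and nothing measures the spread between cultures. The lines were grown in different media, both with serum, so medium and line cannot be told apart. The time between radiation and RNA collection is not given in the sources used here. The deposited counts on named genes were 17851815 in SW1990 Ctrl, 18305682 in SW1990 Rad, 23323266 in PANC-1 Ctrl and 20026595 in PANC-1 Rad.

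Histone genes fall into classes with different supply. Replication-dependent histones are made in bulk while DNA is copied, and their mRNAs normally end in a stem-loop instead of a poly(A) tail. The replication-independent variants are made outside that window as well, mostly from single genes with polyadenylated mRNA, and replace the standard histones at particular places. H2AX is phosphorylated beside DNA double-strand breaks, H2A.Z sits at promoters and enhancers, macroH2A is found in repressed chromatin, H3.3 is placed at active genes and telomeres, H1.0 accumulates in cells that stop dividing or differentiate, and CENP-A marks the centromere. In bulk samples, fewer cells making a transcript and less transcript per cell cannot be told apart.

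Both lines carried the epithelial keratin transcripts of their labelled origin, with 6367, 8933, 5490 and 7817 counts of KRT19 in SW1990 Ctrl, SW1990 Rad, PANC-1 Ctrl and PANC-1 Rad, the order used for 4 values throughout. The mucin gene MUC1 had 56, 85, 313 and 462 counts. The epithelial adhesion gene CDH1 had 9906, 14345, 59 and 65 counts. VIM, the mesenchymal intermediate filament gene, had 17, 0, 82406 and 75166 counts. Transcripts of 12 markers of other cells (blood, endothelium, fibroblasts, acinar and islet cells) were sparse, with a summed level of 3.0, 5.13, 8.91 and 12.2 FPKM (fragments scaled by transcript length and sequencing depth). COL1A1, a fibroblast collagen gene, was the most abundant of them at 1.40, 2.85, 8.44 and 11.0 FPKM. Of these markers, 8, 5, 9 and 9 were at 0 counts, and CD3E, COL1A2, DCN, AMY2A and INS were at 0 in all 4 libraries. The leukocyte gene PTPRC and the endothelial gene PECAM1 each had 0, 2, 0 and 0 counts. Endothelial VWF had 14, 50, 2 and 4 counts, the monocyte gene CD14 had 39, 56, 26 and 52, and the B cell gene CD79A had 0, 6, 0 and 0. Beyond counting error, VWF and CD79A were higher in SW1990 Rad than in SW1990 Ctrl. So were CD14 in PANC-1 Rad (log2 fold change 1.13) and COL1A1 in the irradiated library of each line (0.70 in SW1990 and 0.58 in PANC-1). PRSS1, an acinar trypsinogen gene, had 12, 8, 0 and 0 counts. Their part in the results was not tested.

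Some of the variants differ in ways that can be read in their sequence. H2AFX is the variant gene whose transcripts carry a histone stem-loop. A search for a stem of 6 bases that starts with GG around a loop of 4 bases that starts with TT found it in 1 of the 10 variant genes and in 30 of 69 genes listed as replication-dependent histones (43.5%) among GENCODE 29 transcripts. Of these 69, 4 are annotated as pseudogenes, and without them the share was 29 of 65 (44.6%). The share of 30 in 69 is limited by the annotation. Of the 39 replication-dependent genes without a match, 27 have no annotated transcript of 450 bases or more, against 2 of the 30 with one. The H2AFX element lies at bases 555 to 570 of its coding transcript of 1614 bases, with the paired stem in capitals and the loop in lower case.
H2AFX stem-loop: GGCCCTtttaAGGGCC
The pair H3F3A and H3F3B encode the same protein from different promoters, and CENPA and H2AFJ stand for a cell-cycle gene and for the gene with the largest fold between the lines among the variants. The stretches below hold the 250 bases before the RefSeq start (GRCh38.p14), 5′ to 3′ on the strand of the gene. Capitals mark the motifs named in the next paragraph, each searched on both strands. H3F3A has 4 annotated starts, and the most upstream is shown. The stretches of H3F3B and CENPA lie inside the spans of these genes in the deposited table (chr17:75776434-75785893 and chr2:26764289-26801067). Their RefSeq starts therefore lie downstream of the 5′ ends of those spans.
H2AFX, chr11:119095466-119095715, minus strand: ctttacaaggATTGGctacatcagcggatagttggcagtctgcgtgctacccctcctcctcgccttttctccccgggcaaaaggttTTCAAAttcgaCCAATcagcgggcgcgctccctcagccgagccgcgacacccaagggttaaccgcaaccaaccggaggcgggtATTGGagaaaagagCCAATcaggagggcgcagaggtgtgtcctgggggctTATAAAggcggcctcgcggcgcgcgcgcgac
H2AFJ, chr12:14774155-14774404, plus strand: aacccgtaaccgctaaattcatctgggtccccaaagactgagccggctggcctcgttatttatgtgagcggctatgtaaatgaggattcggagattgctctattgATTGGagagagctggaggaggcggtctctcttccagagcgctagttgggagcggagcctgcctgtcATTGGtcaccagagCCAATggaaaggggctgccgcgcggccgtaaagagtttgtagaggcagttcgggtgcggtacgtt
H3F3A, chr1:226061581-226061830, plus strand: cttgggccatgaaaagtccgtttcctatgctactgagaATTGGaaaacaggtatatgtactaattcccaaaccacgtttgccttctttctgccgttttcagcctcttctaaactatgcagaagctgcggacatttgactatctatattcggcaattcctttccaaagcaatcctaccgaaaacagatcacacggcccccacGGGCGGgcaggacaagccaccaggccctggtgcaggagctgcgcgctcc
H3F3B, chr17:75779780-75780029, minus strand: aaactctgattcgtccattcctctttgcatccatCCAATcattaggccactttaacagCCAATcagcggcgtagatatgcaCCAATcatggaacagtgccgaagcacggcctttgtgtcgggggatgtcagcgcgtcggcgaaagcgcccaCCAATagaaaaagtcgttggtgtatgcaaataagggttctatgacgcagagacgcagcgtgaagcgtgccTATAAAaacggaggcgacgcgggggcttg
CENPA, chr2:26785806-26786055, plus strand: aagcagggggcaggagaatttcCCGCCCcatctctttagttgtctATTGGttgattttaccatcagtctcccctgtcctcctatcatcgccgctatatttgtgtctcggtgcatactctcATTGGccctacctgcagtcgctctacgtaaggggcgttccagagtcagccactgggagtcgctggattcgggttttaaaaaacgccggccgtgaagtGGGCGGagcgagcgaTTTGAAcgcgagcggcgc

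The letters CCAAT were present before 10 of the 13 annotated starts of the 9 matched variant genes (8 of the 9 genes, at any start) and in 32% of all 35116 promoters of the same length, which are counted per start. TATAAA was present before 4 of the 13 starts (H2AFX, H2AFZ, H3F3B and H1FX), against 10.7% of all promoters. H3F3B holds 4 CCAAT matches and a TATAAA that begins 29 bases before its start, while TATAAA was found before none of the 4 starts of H3F3A. TTTGAA was found before 2 of the 13 starts (H2AFX and CENPA) and in 13.3% of all promoters, and begins 18 bases before the start of CENPA. GGGCGG was found before 8 of the 13 starts (5 of the 9 genes) and in 42.6% of all promoters. Matches to the same letters may overlap, and they are letters only.

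The central observation after radiation was a lower level of H1F0 in both lines, while the other variants moved less or in a different way in each line. H1F0 was 1.90-fold lower in irradiated SW1990 cells and 1.70-fold lower in irradiated PANC-1 cells. The other linker histone gene, H1FX, was lower in irradiated SW1990 cells and within counting error in PANC-1 cells, and H3F3B and CENPA differed in opposite directions between the lines. No variant passed a 2-fold change in either line. Fold changes are of counts scaled by the trimmed mean of M values (TMM), and each interval is the exact 95% interval of the counts, which covers counting error only.

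**Figure D1:**
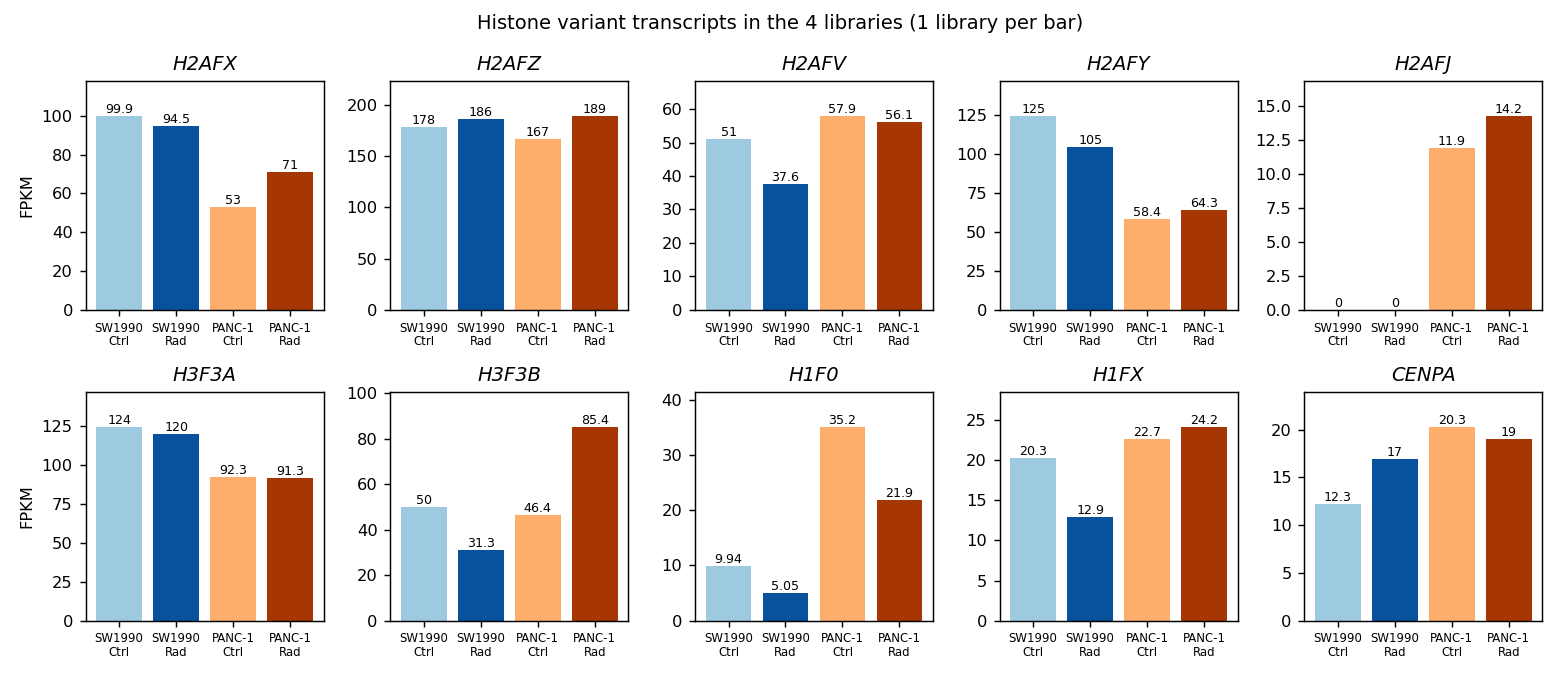
Level of each variant gene in FPKM (vertical axes, each starting at 0), with 1 bar per library and no error bar because each group is 1 library. H1F0 is lower in the irradiated library of each line, and H2AFJ is listed at 0 in both SW1990 libraries.

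With the 2-fold limit, 0 of 9 variants with an FPKM of at least 1 in SW1990 and 0 of 10 in PANC-1 were called, against 9.53% of 15731 genes and 9.12% of 15159 genes. With a limit of 1.5-fold, 2 of 9 variants were called in SW1990 (H1F0 and H1FX, both lower) against 20.5% of genes, and 1 of 10 in PANC-1 (H1F0, lower) against 21.6%. The variants' shares in SW1990 and PANC-1 were thus near or below those of all genes. H1F0 was the 1 variant lower by more than 1.5-fold in both lines, which 1.49% of the 13173 genes tested in both lines were. H2AFJ failed the filter in SW1990, with 0 counts in both libraries.

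**Figure D2:**
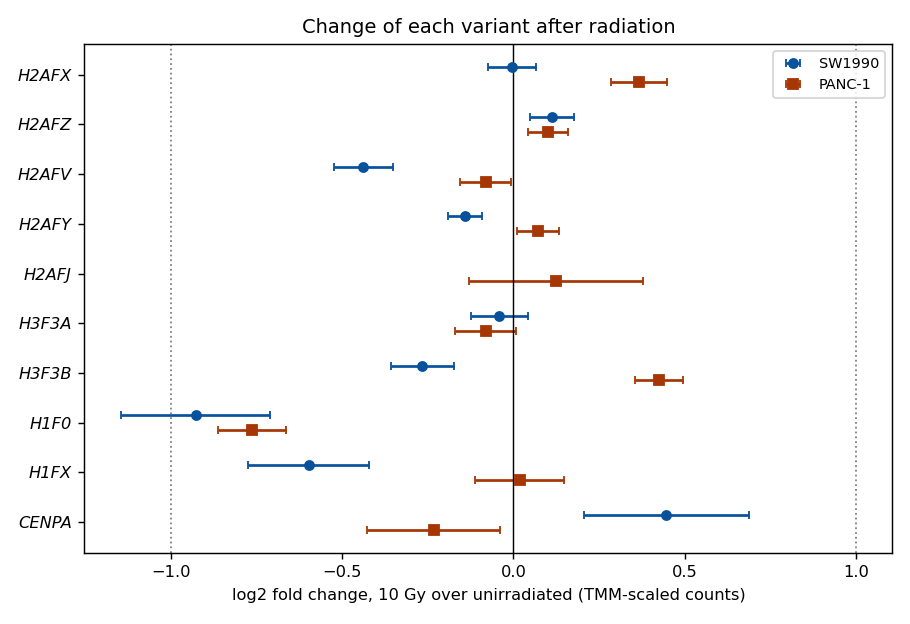
Log2 fold change of each variant after 10 Gy (horizontal axis, TMM-scaled counts), circles for SW1990 and squares for PANC-1, with exact 95% counting intervals as bars and dotted lines at 2-fold. H1F0 lies left of 0 in both lines, and CENPA and H3F3B lie on opposite sides of 0.

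The linker histones bind DNA where it enters and leaves the nucleosome. H1F0 (chr22:37805093-37807436, plus strand), which encodes H1.0, had 513 counts in SW1990 Ctrl, 266 in SW1990 Rad, 2386 in PANC-1 Ctrl and 1284 in PANC-1 Rad. In FPKM these levels were 9.94, 5.05, 35.2 and 21.9. Each irradiated library was below the unirradiated library of its line, and both PANC-1 libraries were above both SW1990 libraries. The log2 fold change of H1F0 was -0.93 (-1.15 to -0.71) in SW1990 and -0.76 (-0.86 to -0.67) in PANC-1. The lines differed by -0.16 on the log2 scale, with a counting interval of -0.40 to 0.07. H1FX (chr3:129314771-129316277, minus strand), which encodes H1.10, had 671, 437, 987 and 913 counts, or 20.3, 12.9, 22.7 and 24.2 FPKM. Its log2 fold change was -0.60 (-0.78 to -0.42) in SW1990 and 0.02 (-0.11 to 0.15) in PANC-1. The low library for H1FX was SW1990 Rad. The level in SW1990 Ctrl was also below that in PANC-1 Ctrl, by a log2 difference of -0.40 (-0.54 to -0.26). The antisense gene H1FX-AS1, which overlaps H1FX, had 4, 0, 19 and 18 counts. Of the summed FPKM of the pair, H1F0 held 32.9%, 28.1%, 60.8% and 47.5%.

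H2AFX (chr11:119093854-119095467, minus strand), which encodes H2AX, had 3323, 3269, 2246 and 2644 counts, or 99.9, 94.5, 53.0 and 71.0 FPKM. Its log2 fold change was close to 0 in SW1990, with an interval of -0.07 to 0.07, and 0.37 (0.28 to 0.45) in PANC-1. Both SW1990 libraries were above both PANC-1 libraries. The sign of the SW1990 value turned under other scalings. H2AFZ (chr4:99948086-99950388, minus strand), which encodes H2A.Z.1, had 3824, 4074, 4707 and 4614 counts and was the highest variant in all 4 libraries by FPKM, at 178, 186, 167 and 189. Its log2 fold change was 0.11 (0.05 to 0.18) in SW1990 and 0.10 (0.04 to 0.16) in PANC-1. With total counts the SW1990 interval reached 0 (-0.01 to 0.12). H2AFV (chr7:44826791-44848083, minus strand), which encodes the second H2A.Z protein, had 2614, 1902, 3225 and 2785 counts, or 51.0, 37.6, 57.9 and 56.1 FPKM. The SW1990 Rad library was the low one, with a log2 fold change of -0.44 (-0.52 to -0.35), against -0.08 (-0.16 to -0.01) in PANC-1, where scaling by total counts turned the sign. H2AFZ accordingly made up 77.7%, 83.2%, 74.2% and 77.1% of the summed FPKM of the H2A.Z pair.

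Transcripts of H2AFY (chr5:135333900-135399914, minus strand), which encodes macroH2A1, had 7221, 6454, 4307 and 4134 counts, or 125, 105, 58.4 and 64.3 FPKM. Both SW1990 libraries were above both PANC-1 libraries. The log2 fold change after radiation was -0.14 (-0.19 to -0.09) in SW1990 and 0.07 (0.01 to 0.13) in PANC-1. H2AFJ (chr12:14774383-14778002, plus strand), which encodes an H2A protein with a distinct C-terminal end, had 0, 0, 258 and 257 counts, or 0, 0, 11.9 and 14.2 FPKM. It was detected in PANC-1 libraries alone, and radiation gave a log2 fold change of 0.12 (-0.13 to 0.38) there. Set against a floor of 3 counts per SW1990 library, the level in PANC-1 was 77.1-fold higher without radiation and 82.9-fold higher after it. These folds are not lower bounds, because they leave out the counting error in PANC-1. The exact 95% counting interval of the log2 difference, SW1990 over PANC-1, allows for it and ended at -5.96 and -6.06.

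The genes for H3.3 behaved differently although their protein is the same. H3F3A (chr1:226061851-226072001, plus strand) had 2386, 2286, 2203 and 1903 counts, or 124, 120, 92.3 and 91.3 FPKM. Its log2 fold change was -0.04 (-0.12 to 0.04) in SW1990 and -0.08 (-0.17 to 0.01) in PANC-1, both with intervals that reach 0, and scaling by total counts turned the PANC-1 sign. H3F3B (chr17:75776434-75785893, minus strand) had 2137, 1751, 2894 and 3551 counts, or 50.0, 31.3, 46.4 and 85.4 FPKM. In SW1990 the irradiated library was the lower, and in PANC-1 it was the higher. The log2 fold change of H3F3B was -0.27 (-0.36 to -0.17) in SW1990 and 0.43 (0.35 to 0.50) in PANC-1 from counts, and -0.68 and 0.88 from FPKM. The FPKM value was the larger one in both lines. The share of H3F3A in the summed FPKM of the pair was 71.3% in SW1990 Ctrl, 79.3% in SW1990 Rad, 66.5% in PANC-1 Ctrl and 51.7% in PANC-1 Rad. From counts, which do not allow for transcript length, it was 52.8%, 56.6%, 43.2% and 34.9%, higher after radiation in SW1990 and lower in PANC-1 on both scales. UNK, a zinc finger gene on the opposite strand that overlaps H3F3B, had 1222, 983, 879 and 853 counts, and whether the counting used strand is not given in the sources used here. The log2 fold change of UNK was -0.29 in SW1990 and 0.09 in PANC-1, and its part in H3F3B was not tested. The span of UNK begins at base 75784771, and the stretch printed above for H3F3B ends at base 75780029. Processed copies of H3F3A are also listed: the summed counts of its 5 pseudogene rows, kept apart from the parent row, equalled 7.50%, 8.44%, 9.35% and 7.83% of the count of the parent, mostly H3F3AP4 (121, 126, 132 and 106 counts) and H3F3AP6 (58, 67, 74 and 43 counts). H3F3BP1 had 24, 15, 31 and 21 counts, and the 5 pseudogene rows of H2AFZ held 0, 0, 3 and 0. Levels of H3F3A are therefore uncertain by the reads that could be placed in either.

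**Figure D3:**
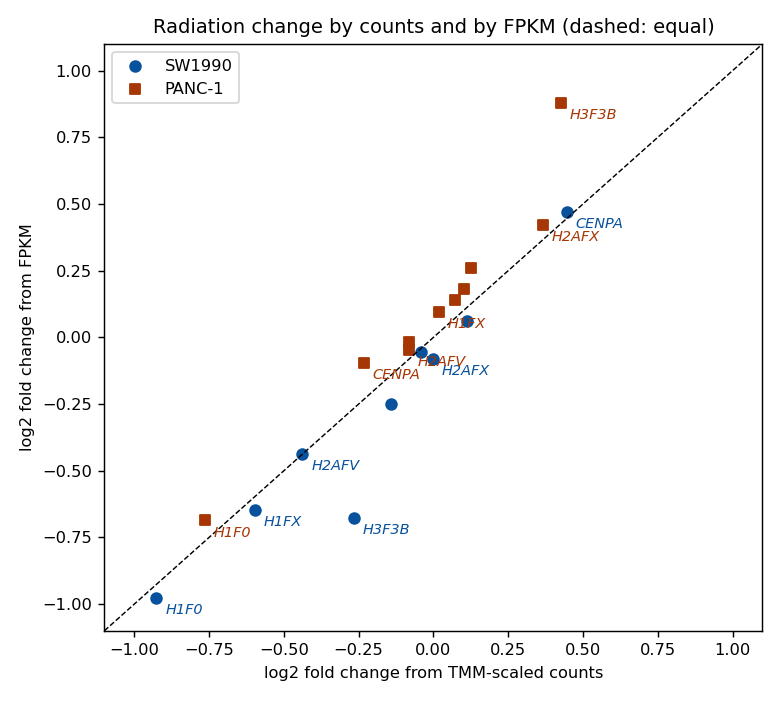
Log2 fold change after 10 Gy from TMM-scaled counts (horizontal axis) and from FPKM (vertical axis), circles for SW1990 and squares for PANC-1, with the dashed line at equal values. H3F3B lies farthest from the line in both lines of cells, at -0.27 against -0.68 in SW1990 and 0.43 against 0.88 in PANC-1.

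CENPA (chr2:26764289-26801067, plus strand) had 251, 337, 503 and 391 counts, or 12.3, 17.0, 20.3 and 19.0 FPKM. The irradiated library was the higher in SW1990 and the lower in PANC-1, and SW1990 Ctrl was the lowest of the 4. The log2 fold change was 0.45 (0.21 to 0.69) in SW1990 and -0.23 (-0.43 to -0.04) in PANC-1. The annotated span of CENPA overlaps SLC35F6, a transporter gene on the same strand, which had 1615, 1823, 1994 and 1324 counts. The log2 fold change of SLC35F6 was 0.20 in SW1990 and -0.46 in PANC-1, the same directions as CENPA, and the exchange of reads between them was not tested. SLC35F6 ends at base 26781231, and the stretch printed above for CENPA begins at base 26785806. A row on the same strand that names no gene also overlaps CENPA, with 163, 136, 180 and 150 counts.

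CENPA, H3F3B and H2AFY were the 3 of 9 variants with opposite directions in the lines and both counting intervals clear of 0, against 13.6% of the 13173 genes. H2AFZ, H2AFV and H1F0 were the 3 of 9 with the same direction and both intervals clear of 0, against 20% of genes. Intervals are narrower for genes with more counts, so these shares depend on expression level. They also depend on the scaling: with total counts the opposite directions held for H3F3B and H2AFY (2 of 9, against 13.6% of genes) and the same direction for H1F0 (1 of 9, against 20.3% of genes). The interval of CENPA in PANC-1 then reached 0 (-0.34 to 0.05). The difference between the lines in log2 fold change, SW1990 minus PANC-1, was 0.68 (0.38 to 0.98) for CENPA and -0.69 (-0.81 to -0.58) for H3F3B. With 1 library per group no test of that difference over cultures can be made.

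One model over the 4 libraries (edgeR, quasi-likelihood test) held terms for line and radiation, so that the lines served as replicates of the treatment with 1 residual degree of freedom. For radiation, 0 of 10 variants had an adjusted p under 0.05, and so did 0% of the 18180 genes. The smallest adjusted p of any gene was 0.718, and 833 genes (4.58%) had an unadjusted p under 0.05. H1F0 was the 1 variant among these, with an unadjusted p of 0.00354 and a Benjamini-Hochberg adjusted p of 0.936 in edgeR, lower in both lines. DESeq2 called 39 genes and 0 variants, with an adjusted p of 0.158 for H1F0 and none given for H2AFJ and CENPA. Over the edgeR and DESeq2 alternatives the adjusted p of H1F0 ranged from 0.158 to 1.

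More variants passed the test for the line than for radiation. In that edgeR fit 4 of 10 variants differed between the lines at an adjusted p under 0.05, beside 43.6% of all genes, so the share of variants was close to that of all genes. For the line, the unirradiated and the irradiated library served as replicates, so the p-values measure no spread between cultures of a line. H1F0 (adjusted p 0.00159) and H2AFJ (adjusted p 0.00269) were lower in SW1990 in both pairs of libraries in the edgeR fit. H2AFY (adjusted p 0.0121) and H2AFX (adjusted p 0.0497) were higher in SW1990 in both pairs in the edgeR fit, and the call of H2AFX was lost without the filter on low counts (adjusted p 0.0894). Over the edgeR and DESeq2 alternatives the adjusted p of H2AFX ranged from 0.031 to 0.0894. H1F0 was 4.17-fold lower in SW1990 than in PANC-1 without radiation and 4.67-fold lower after it. The log2 difference, SW1990 over PANC-1, was 0.90 and 0.69 for H2AFY and 0.72 and 0.35 for H2AFX in the unirradiated and the irradiated pair. In the unirradiated pair H2AFY passed 2-fold with total counts (1.13) and with FPKM (1.09). With the 2-fold limit 2 of 10 variants (H1F0 and H2AFJ) were called in the unirradiated pair, against 42% of 16626 genes, and 3 of 10 (with H1FX, 2.02-fold lower in SW1990) in the irradiated pair, against 41.6% of 16819 genes. The call of H1FX in the irradiated pair was lost with total counts (-0.93) and with FPKM (-0.90), and H3F3B passed 2-fold there with FPKM (-1.45). Scaling by total counts moved the log2 differences of all genes by 0.23 in the unirradiated pair and by 0.08 in the irradiated pair. CENPA was lower in SW1990 without radiation, at -0.85, and its interval reached 0 after it (-0.38 to 0.05).

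**Figure D4:**
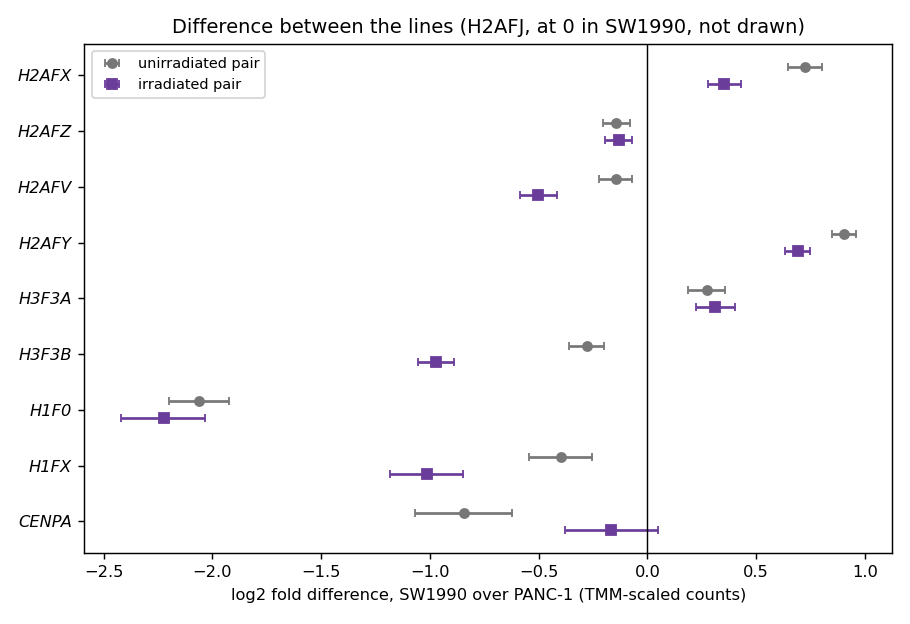
Log2 difference between the lines, SW1990 over PANC-1 (horizontal axis, TMM-scaled counts), circles for the unirradiated and squares for the irradiated pair, with exact 95% counting intervals. H2AFJ, at 0 counts in SW1990, is not drawn. Of the 9 genes drawn H1F0 lies farthest to the left at -2.06 and -2.22, while H2AFX and H2AFY lie to the right in both pairs.

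The replication-dependent histones are given beside the variants as a description, with no test. Of 69 genes 61 had an FPKM of at least 1 in each line, and 59 of these were lower in irradiated SW1990 cells, 43 of them by more than 2-fold. In PANC-1 54 of 61 were lower, 9 by more than 2-fold. Of all genes tested, 728 of 15731 in SW1990 and 633 of 15159 in PANC-1 were lower by more than 2-fold. Without the 4 annotated pseudogenes, 57 of 58 were lower in SW1990 and 51 of 58 in PANC-1. Their median log2 fold change was -1.18 in SW1990 and -0.60 in PANC-1, beside 0.02 and -0.02 for all genes tested and -0.14 and 0.04 for the variants. Among the variants tested, 2 were higher and 7 lower in SW1990, and 6 were higher and 4 lower in PANC-1, while 53.4% and 48.3% of all genes tested were higher. H1F0, which is itself part of the variant medians, had -0.93 and -0.76. Of the 5 linker histone genes of the replication-dependent class, a group looked at after its values were seen, 4 were tested and lower in both lines, between -1.50 and -1.29 in SW1990 and between -0.41 and -0.23 in PANC-1. H2AFX, with a stem-loop match like 30 of the 69 replication-dependent genes, had log2 fold changes near 0 and of 0.37. The summed FPKM of the replication-dependent genes was 15072, 6299, 10448 and 7884, and that of the variants 670, 609, 565 and 637. The variants made up 4.26%, 8.81%, 5.13% and 7.47% of the sum of both. Single rows in the replication-dependent sum were uneven. HIST1H2BN had 64, 1004, 2250 and 41 counts, HIST1H3C had 0, 0, 4480 and 3072, and HIST1H3F had 1881, 805, 0 and 0. How reads were placed among the replication-dependent genes was not tested. The labels name both an mRNA library kit and depletion of ribosomal RNA, and how far mRNA without a poly(A) tail was captured was not tested.

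**Figure D5:**
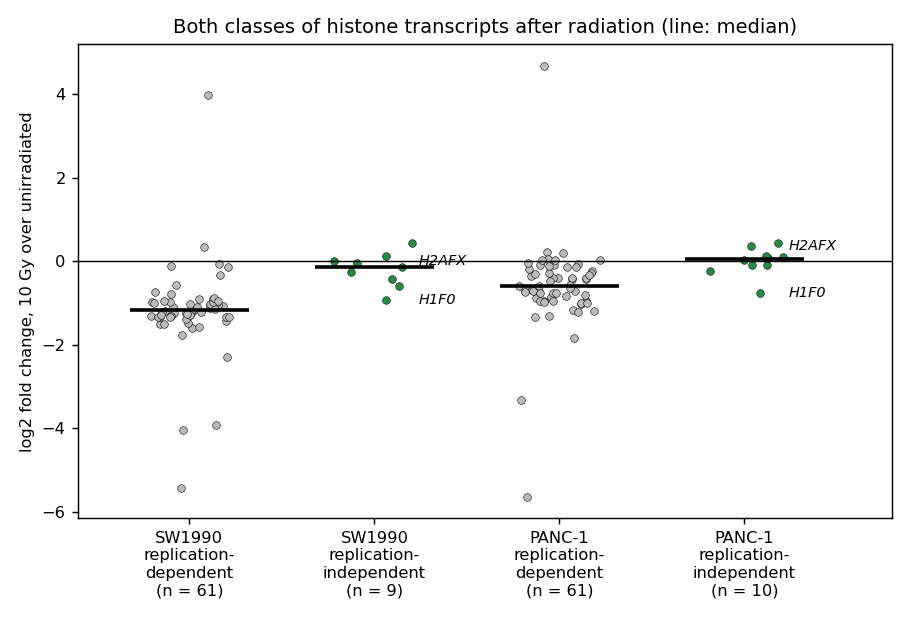
Log2 fold change after 10 Gy (vertical axis) of replication-dependent histone genes (grey) and the variants (green) with an FPKM of at least 1 in either library of the line, 1 point per gene, with the median as a black line. The grey medians are -1.18 in SW1990 and -0.60 in PANC-1, and the green ones are -0.14 and 0.04.

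The genes that place the variants are given by list, with log2 fold changes from counts. Of 12 genes for H2A.Z exchange, 9 were lower in SW1990 and 8 in PANC-1, while 53.4% and 48.3% of all genes tested were higher. The medians were -0.15 and -0.19, beside 0.02 and -0.02 for all genes tested. DMAP1, a subunit of the complexes that exchange H2A.Z, was lower in both lines (-1.19 in SW1990 and -0.49 in PANC-1), but by -0.41 and -0.13 from FPKM, under 2-fold in each. ZNHIT1, a subunit of the SRCAP complex, went in opposite directions (-0.49 and 0.51). Of 8 genes for H3.3 deposition, 3 were higher and 5 lower in each line, with medians of -0.06 and -0.05. DAXX, the H3.3 chaperone of heterochromatin, was higher in both lines (0.32 and 0.60), and ASF1A, which hands H3 and H4 to other chaperones, was lower (-0.34 and -0.17). Of 9 genes for CENP-A deposition, 5 were higher in SW1990 and 6 in PANC-1, with medians of 0.01 and 0.11. HJURP, the chaperone of CENP-A, had 1203, 1114, 2956 and 1464 counts, with log2 fold changes of -0.09 (-0.21 to 0.03) in SW1990 and -0.88 (-0.97 to -0.79) in PANC-1. MIS18A, which licenses centromeres for new CENP-A, had -0.08 and 0.35.

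Genes of damage signalling, histone supply and the centromere went in both directions. Of 17 genes for H2AX damage signalling 16 were tested, with 8 higher in SW1990 and 7 in PANC-1, and medians of 0.01 and -0.03. RAD50, of the complex that senses breaks, was higher in SW1990 alone of the 2 lines (0.99, against -0.11 in PANC-1), and RNF8, a ubiquitin ligase recruited to phosphorylated H2AX sites, was higher in SW1990 (0.31), while in PANC-1 it was 0.33 from counts and -0.09 from FPKM. For RAD50 in SW1990 the FPKM moved far less than the counts, from 22.1 to 24.3 (0.14). In PANC-1 the FPKM of RAD50 moved further than the counts, from 27.5 to 17.1 (-0.68). Of 14 genes for replication-coupled histone supply, 7 were higher and 7 lower in each line, with medians of -0.01 and -0.00. ZNF473, which takes part in processing of replication-dependent histone mRNA, was lower in SW1990 (-1.44), while in PANC-1 it was -0.16 from counts and 0.05 from FPKM. ASF1B was higher in both (0.27 and 0.60). Of 9 general histone chaperones 7 were lower in SW1990 and 6 in PANC-1, with medians of -0.16 and -0.09. The FACT subunit SUPT16H had -0.13 and -0.43, and the chromatin remodeler HELLS had -0.58 and 0.26. Of 15 constitutive centromere genes 9 were higher in SW1990 and 6 in PANC-1, with medians of 0.04 and -0.07. CENPW was higher in both (0.40 and 0.32), and CENPM had -0.61 and 0.02.

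Cell-cycle genes were read beside the variants because CENPA and the replication-dependent histones are made in set phases. Of 12 mitotic genes 8 were higher in SW1990 and 7 in PANC-1, with medians of 0.14 and 0.20. CDK1, the mitotic kinase, had 0.25 and 0.52, and TOP2A, which untangles chromosomes, had 0.38 and 0.35. Of 13 S-phase genes 5 were higher in SW1990 and 12 in PANC-1, with medians of -0.07 and 0.15. Of all genes tested, 53.4% in SW1990 and 48.3% in PANC-1 were higher. In SW1990 7 S-phase genes were lower and 5 higher with counting intervals clear of 0. TK1 had 0.46 and 0.58 and CDC6 had 0.46 and 0.41, both higher in both lines. Of 15 other variant histone genes 2 were tested in SW1990 and 1 in PANC-1. H2BFS, an H2B gene, had -1.27 in SW1990 and 0.11 in PANC-1, and H2AFY2, which encodes macroH2A2, had 563, 433, 9 and 17 counts.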

How the data were processed

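There was 1 library per line and treatment. The authors deposited a table of 59263 rows with raw counts and FPKM for each library. According to the supplementary methods and the submitters' processing notes, the authors trimmed reads with Trimmomatic 0.36, aligned them to GRCh38 with HISAT2 2.0 and computed the deposited FPKM with StringTie 1.3.3b, normalized for transcript length and depth. The tool and strand setting behind the deposited counts are not given in the sources used here. The 1089 rows that name no gene (0.453% to 0.635% of counts) were left out, 27 names turned into dates were restored by identifier, and 1 replication-dependent symbol with more than 1 row was left out.

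Library sizes were scaled by TMM over all 4 libraries (edgeR 4.0.16, R 4.3.3). Genes that reached 1 FPKM in either library of a pair were compared, and FPKM of 0 was set to 0.01 for ratios. Clopper-Pearson intervals (95%) cover counting error only, and the interval of a difference between lines used the delta method. The 4-library fit used filterByExpr and Benjamini-Hochberg adjustment over all genes. DESeq2 1.42.0 was an alternative. All 10 variants are named, with the 2 genes of largest mean absolute log2 fold change in each list among genes at 1 FPKM or more in every library, and replication-dependent histones are given as a group. UNK, SLC35F6, H1FX-AS1, H2AFY2, CDH1, VIM and the markers of other cells beside COL1A1 were named after their values were seen. So were HIST1H2BN, HIST1H3C and HIST1H3F, as exceptions to the group of replication-dependent histones. The variants and gene lists were chosen with earlier results of these data known. Positions are those of the deposited table, equal to GENCODE 29. Promoters are from RefSeq, where 9 of 10 variants matched (not H1F0).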

Additional observations from a re-analysis of the deposited data

Results flagged for a closer look

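For 3 of 9 variants the irradiated library was higher than its control in one line and lower in the other, with both counting intervals clear of 0. Among the 13173 genes tested in both lines the share was 13.6%. With total counts the interval of CENPA in PANC-1 reached 0, and 2 of 9 variants held, against 13.6% of genes. The difference in log2 fold change, SW1990 minus PANC-1, was -0.69 for H3F3B, 0.68 for CENPA and -0.21 for H2AFY. With 1 library per group the difference between the lines was not tested.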

How the results depend on the processing

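No variant passed 2-fold in either line under total-count or DESeq2 scaling, FPKM ratios, rows without a gene kept, a minimum of 10 counts over the pair, the read tests or the requirement that the whole interval lie beyond 2-fold. With a limit of 1.5-fold 2 variants passed in SW1990 and 1 in PANC-1. The number of all genes past the limit depended on the rule. In SW1990 it was 1499, and 2548 with the minimum of 10 counts, 3231 at 1.5-fold, 662 with a q under 0.001 in edgeR's exactTest at dispersion 0, 670 with a binomial test of the reads and 376 with the whole interval beyond 2-fold. In PANC-1 it was 1383, and 2531, 3278, 723 (binomial test) and 399 under the same rules. The exactTest function stopped with an error on the PANC-1 pair and gave no value there, and the binomial test was added after seeing the data. These read tests compare libraries, not conditions.

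Of 76 log2 fold changes of variants under other scalings, 4 changed sign (H2AFX in SW1990 with DESeq2 size factors and with rows without a gene kept, H2AFV and H3F3A in PANC-1 with total counts) and 13 left the counting interval. Between the unirradiated lines 2 of 10 variants passed 2-fold, against 42% of 16626 genes (3415 higher and 3565 lower in SW1990). With total counts or FPKM ratios 3 passed, where H2AFY, higher in SW1990, was added (log2 difference 1.13 and 1.09). Of all genes, 4130 were then higher and 2962 lower with total counts, and 4239 and 2974 with FPKM ratios. The irradiated pair also gave 3, against 41.6% of 16819 genes, with H1FX, lower in SW1990, in place of H2AFY. That call of H1FX was lost with total counts (-0.93) and FPKM (-0.90). Without the treatment term 5 variants differed between the lines, with H3F3B added (edgeR adjusted p 0.0464), beside 8392 of all genes, and without the filter on low counts 3 did, beside 6105. With DESeq2 (beside 6124) and with RLE scaling in edgeR (beside 7799), 4 did, as with TMM (beside 7921). For radiation 0 variants passed in any of these fits. Among the named list genes, FPKM ratios, compared after seeing the data, turned the direction of RNF8 and ZNF473 in PANC-1. The causes were not tested. No replicate could be left out, because each group is 1 library. The 4-library fit pairs the libraries by line, and without the line term 0 variants passed for radiation as well. The groups share no other pairing.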
